A study of Mus musculus with 17 samples.

Results

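The 7 genes described here serve the making of cholesterol and its control, and were taken by symbol from the deposited table of 54658 genes, which held 1 row for each. Hmgcs1, Idi1, Sqle, Lss and Cyp51 encode enzymes of sterol synthesis, and Srebf2 and Insig1 encode a regulator of that pathway and the regulator's brake. None of the 7 is an uptake receptor, so receptors and lipoprotein handling are given from a wider set of 18 sterol synthesis genes, 7 genes that control the sterol response, 8 of uptake and trafficking and 9 of efflux, storage and oxysterols, with 6 fatty acid synthesis genes for comparison. The series, on fat-derived leptin and adipsin in osteoarthritis, sequenced the RNA of mouse fat. Mice of a type named LD, aged 3 to 5 weeks, were injected over the sternum with mouse embryonic fibroblasts (MEF), which grew into fat-like tissue. Implants from wildtype (WT) pups carry the codes MWM and MWF, and implants from leptin knockout (KO) pups the codes MKM and MKF, where the last letter stands for groups described as male or female; all 4 groups had knee surgery that destabilizes the medial meniscus at 16 weeks. Visceral fat called endogenous makes up EVM (with surgery), EVFN (without it) and EVFY (a code the text does not explain, placed here by its genotype). Endogenous subcutaneous fat from males after surgery is ESM, and the text does not say which mice gave the endogenous fat. Tissue was taken at 28 weeks. Each group had 2 libraries, and the labels do not say whether these came from separate animals, whether animals were pooled, or what allele the KO pups carried. The text calls the hosts male although 2 implant groups are described as female.

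Totals ranged from 16444965 to 25805502 reads, so that 1 read was worth 0.0388 to 0.0608 CPM, the read count per 1000000 reads. The labels name the tissue as ganglia, yet the summed level of 8 adipocyte markers was 9987 to 31813 CPM over 14 libraries and that of 8 sensory neuron markers 3.19 to 35.1 CPM. Transcripts of Lep, the gene knocked out in the KO donors, were at 1336 to 1726 CPM in MKM2, MKF1 and MKF2 and at 806 to 2675 CPM in the WT implants, without a drop in the KO implants. The allele and the part of the gene it removes are not given, so this level does not check the genotype, and the direction of each KO comparison follows the labels. The libraries labelled EVFN1 and MKM1 stood apart from their labels. The library with the profile closest to EVFN1 was MKF1 (r = 0.984 across genes, against 0.906 for EVFN2), and the closest to MKM1 was EVFY1 (r = 0.989, against 0.891 for MKM2). Cfd, the adipocyte protease adipsin, was at 81.8 CPM in EVFN1 and 12313 in EVFN2, and at 14068 CPM in MKM1 and 102 in MKM2. Both libraries are given singly, and group values rest on the other 14 unless 16 are named. Each main comparison was also made with all 16, where none of the 7 genes passed the threshold of an adjusted p under 0.05 (limma) and at most 4 had an unadjusted p under 0.05 in any 1 comparison. Of all 17964 genes in that fit, 9.66% passed between WT implants and visceral fat, 0% between KO implants and visceral fat, 2.47% and 0.273% between WT and KO implants and subcutaneous fat, 1.72% between KO and WT implants, 0.323% between the endogenous fats, 0.0891% within visceral fat and 1.21% for the male and female difference. In the WT implants described as male, MWM1 and MWM2, the Y-linked gene Ddx3y was at 13.1 and 17.3 CPM beside Xist at 494 and 466 CPM, against 73.5 to 95.5 CPM of Ddx3y in EVM, ESM and MKM2.

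Cholesterol is built from acetyl-CoA through mevalonate, isoprenoids, squalene and lanosterol. SREBP2, the product of Srebf2, is a transcription factor held in the endoplasmic reticulum with its escort SCAP. When membrane sterol is high, INSIG proteins retain the escort; when it falls, SREBP2 is cut free and raises the transcription of the enzymes, of genes of lipoprotein uptake and of Insig1 itself. Adipocytes store much cholesterol in and around the lipid droplet and take up a large share of it from lipoproteins.

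Promoter sequence was held for 6 of the 7 genes (RefSeq, GRCm38.p6), and it is shown because the genes are known as targets of 1 factor. The stretches lie upstream of the RefSeq start, on the gene's strand, at chr13:119690101-119690350 for Hmgcs1, chr15:82147019-82147180 for Srebf2, chr5:28071162-28071362 for Insig1, chr10:76531355-76531587 for Lss, chr13:8885549-8885578 for Idi1 and chr5:4104709-4104738 (minus strand) for Cyp51. The stretches of Idi1 and Cyp51, though upstream of the RefSeq start, lie inside the annotated gene spans given below. For these genes only 30 bases around the first CCAAT box are shown. Capitals mark the core of the sterol regulatory element (TCACNCCA) and the CCAAT box, both searched on either strand, so that ATTGG is a CCAAT box on the other strand.
Hmgcs1: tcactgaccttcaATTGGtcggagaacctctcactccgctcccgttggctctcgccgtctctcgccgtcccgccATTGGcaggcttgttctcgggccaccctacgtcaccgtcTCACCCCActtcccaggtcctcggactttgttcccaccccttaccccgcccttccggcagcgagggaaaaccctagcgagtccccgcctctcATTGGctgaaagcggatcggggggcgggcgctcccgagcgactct
Srebf2: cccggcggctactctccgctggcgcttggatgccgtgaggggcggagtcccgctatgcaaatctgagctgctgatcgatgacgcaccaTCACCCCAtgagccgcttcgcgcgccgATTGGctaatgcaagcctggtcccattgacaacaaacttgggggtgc
Insig1: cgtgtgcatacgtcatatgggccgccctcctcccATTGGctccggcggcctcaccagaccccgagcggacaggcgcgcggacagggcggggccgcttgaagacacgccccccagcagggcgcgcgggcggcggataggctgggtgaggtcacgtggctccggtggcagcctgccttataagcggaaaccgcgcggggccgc
Lss: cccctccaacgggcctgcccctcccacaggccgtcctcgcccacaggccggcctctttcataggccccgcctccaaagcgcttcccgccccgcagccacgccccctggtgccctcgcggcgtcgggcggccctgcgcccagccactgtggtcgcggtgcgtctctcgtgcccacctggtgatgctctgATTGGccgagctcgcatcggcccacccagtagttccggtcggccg
Idi1: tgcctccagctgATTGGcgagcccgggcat
Cyp51: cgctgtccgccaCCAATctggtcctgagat
Over the 250 bases before the start, the element core was found in Hmgcs1 and Srebf2, 2 of 6 genes, and in 3.67% of 32851 promoters of the same length. A CCAAT box stood in 6 of 6, against 33.9% of all promoters. A GC box (GGGCGG or CCGCCC) also stood in 6 of 6, against 32.7%. The E-box CACGTG stood in Insig1 alone among the 6, against 6.02%. A match is a description of the letters in this window and not a measured site.

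Per kilobase of exon, Insig1 and Hmgcs1 were the most abundant of the 7 over the 14 libraries, with mean levels of 43.6 and 42.2 CPM per kb. Srebf2 followed with 15.8 and Cyp51 with 7.53. Sqle (3.40), Lss (2.69) and Idi1 (2.54 CPM per kb) were lowest. The annotated exons of Lss cover 10787 bases, which lowers its value per kb. All 7 passed the filter on low values, and the lowest value of any member was 2.92 CPM, for Idi1 in the library labelled MKM1.

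The enzyme genes are given first, in the order of the pathway. Hmgcs1 (chromosome 13, 119690379 to 119708260, plus strand, mm10), the cytosolic synthase that makes HMG-CoA, was at 276 (MWM1), 260 (MWM2), 79.5 (MWF1) and 183 CPM (MWF2) in the WT implants and at 247 (MKM2), 279 (MKF1) and 216 CPM (MKF2) in KO implants. In visceral fat it was at 222 (EVM1), 146 (EVM2), 146 (EVFY1), 153 (EVFY2) and 110 CPM (EVFN2), and in subcutaneous fat at 283 (ESM1) and 115 CPM (ESM2). The highest value of the 14, in ESM1, and 1 of the 3 lowest, in ESM2, came from the same group, and all tissues overlapped. The libraries labelled EVFN1 and MKM1 had 239 and 66.1 CPM.

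Idi1 (chromosome 13, 8885501 to 8892451, plus strand), the isomerase that supplies dimethylallyl diphosphate, was at 19.2 (MWM1), 15.1 (MWM2), 7.44 (MWF1) and 17.0 CPM (MWF2) in the WT implants. Its level was 7.84 (MKM2), 6.76 (MKF1) and 4.12 CPM (MKF2) in KO implants. In endogenous fat it was at 5.86 (EVM1), 12.0 (EVM2), 4.22 (EVFY1), 3.84 (EVFY2), 4.46 (EVFN2), 4.31 (ESM1) and 12.4 CPM (ESM2). The 3 highest values were WT implants, and MWF1 lay below EVM2 and ESM2. The libraries labelled EVFN1 and MKM1 had 7.31 and 2.92 CPM.

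Sqle (chromosome 15, 59315077 to 59331192, plus strand), the squalene epoxidase, was at 35.3 (MWM1), 28.7 (MWM2), 15.9 (MWF1) and 33.6 CPM (MWF2) in the WT implants. KO implants had 19.5 (MKM2), 15.7 (MKF1) and 11.8 CPM (MKF2). Endogenous fat had 19.9 (EVM1), 24.3 (EVM2), 7.34 (EVFY1), 9.37 (EVFY2), 8.61 (EVFN2), 10.5 (ESM1) and 23.3 CPM (ESM2). Again 3 of 4 WT implants were above every other library of the 14, and MWF1 was not. The library labelled EVFN1 had 31.7 CPM, above all visceral libraries, and that labelled MKM1 had 6.998 CPM.

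Lss (chromosome 10, 76531588 to 76557138, plus strand), lanosterol synthase, had the smallest coefficient of variation of the 7 over the 14 libraries (0.252, against 0.313 for Srebf2 to 0.592 for Idi1). It was at 39.3 (MWM1), 36.8 (MWM2), 18.3 (MWF1) and 34.8 CPM (MWF2) in WT implants and at 33.6 (MKM2), 38.7 (MKF1) and 32.8 CPM (MKF2) in KO implants. In endogenous fat it was at 26.2 (EVM1), 33.7 (EVM2), 23.1 (EVFY1), 21.6 (EVFY2), 21.6 (EVFN2), 20.8 (ESM1) and 25.3 CPM (ESM2). MWF1 was the lowest of the 14 and EVM2 lay above MKM2 and MKF2, so that implants and endogenous fat overlapped. EVFN1 had 44.4 CPM and MKM1 15.0 CPM, the highest and the lowest value of all 16.

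Cyp51 (chromosome 5, 4081145 to 4104746, minus strand), the lanosterol demethylase, was at 64.5 (MWM1), 59.1 (MWM2), 27.6 (MWF1) and 50.8 CPM (MWF2) in the WT implants. It was at 31.3 (MKM2), 26.5 (MKF1) and 25.0 CPM (MKF2) in KO implants and at 28.6 (EVM1), 37.7 (EVM2), 26.6 (EVFY1), 20.9 (EVFY2), 17.0 (EVFN2), 14.6 (ESM1) and 35.1 CPM (ESM2) in endogenous fat. Its exons share 166 bases with those of Akap9 on the other strand (61.3 to 104 CPM), and without a stated strand setting reads there cannot be told apart. The libraries labelled EVFN1 and MKM1 had 40.7 and 14.1 CPM.

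The regulators come next. Srebf2, which encodes the transcription factor, lies on chromosome 15 from 82147181 to 82205379 on the plus strand. It was highest in the WT implants described as female, at 172 (MWF1) and 195 CPM (MWF2), and was at 108 (MWM1) and 122 CPM (MWM2) in those described as male. The KO implants had 96.4 (MKM2), 107 (MKF1) and 96.2 CPM (MKF2), all below the lowest WT implant. Endogenous fat had 124 (EVM1), 114 (EVM2), 75.6 (EVFY1), 86.2 (EVFY2), 76.2 (EVFN2), 77.8 (ESM1) and 134 CPM (ESM2). The library labelled EVFN1 had 133 CPM and that labelled MKM1 78.5 CPM.

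Insig1, the brake on SREBP2, lies on chromosome 5 from 28071363 to 28078662 on the plus strand, and its levels separated the visceral fat groups from each other. It was at 185 (EVM1) and 137 CPM (EVM2), and at 75.0 (EVFY1), 62.4 (EVFY2) and 57.7 CPM (EVFN2). Subcutaneous fat had 145 (ESM1) and 188 CPM (ESM2), KO implants had 140 (MKM2), 189 (MKF1) and 157 CPM (MKF2), and WT implants had 176 (MWM1), 172 (MWM2), 71.7 (MWF1) and 133 CPM (MWF2). EVFY1, EVFY2, EVFN2 and MWF1 were the lowest of the 14. The libraries labelled EVFN1 and MKM1 had 174 and 42.8 CPM.

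**Figure D1:**
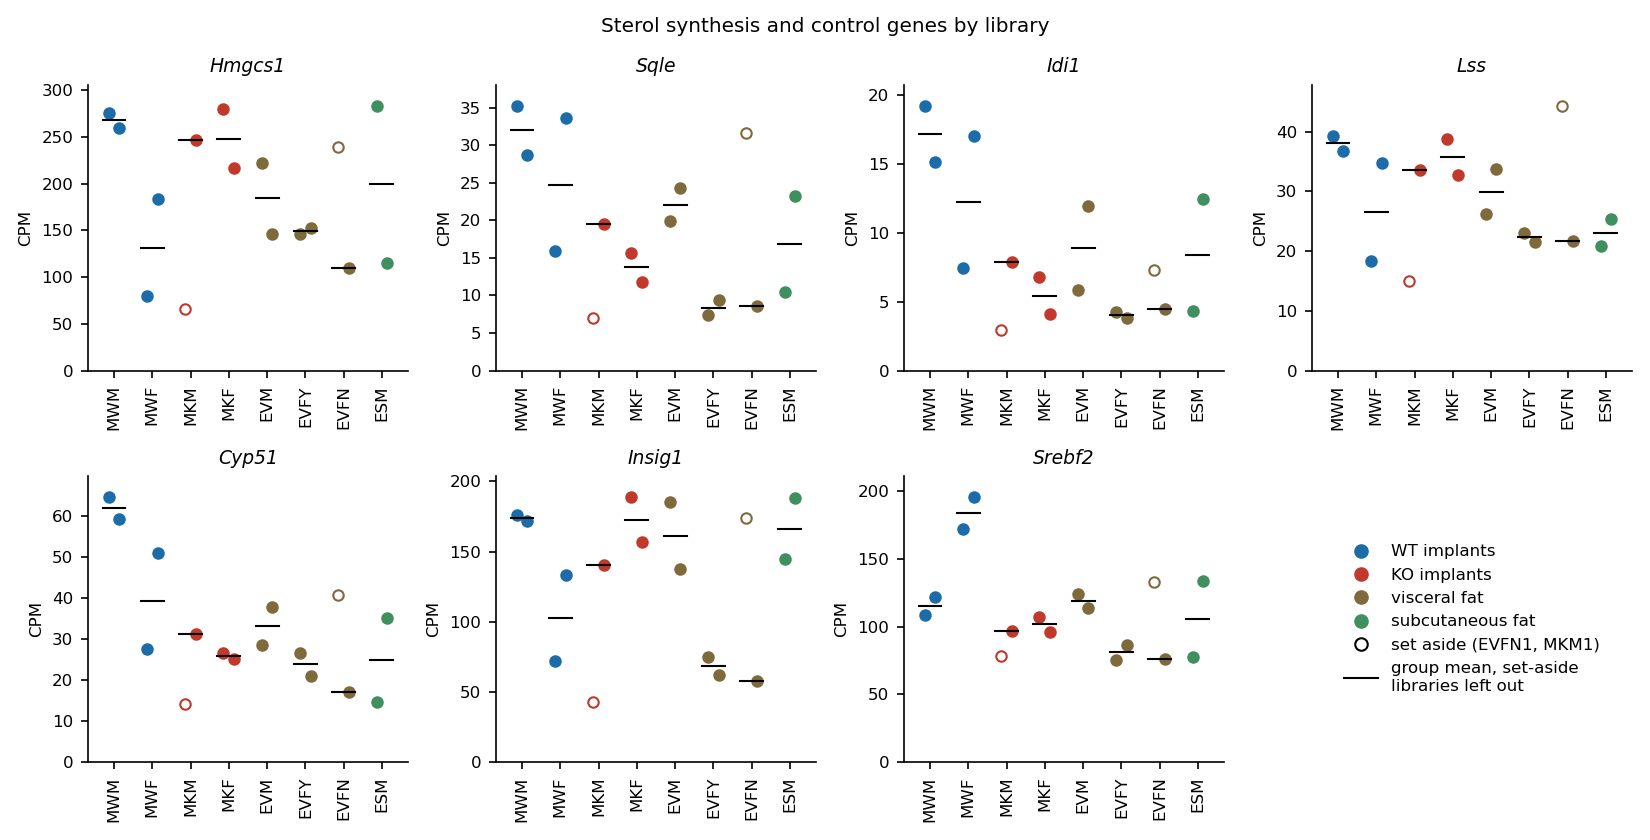
CPM of the 7 genes (vertical axes, from 0) in each of 16 libraries by group code (horizontal axes), with 1 point per library, open points for the libraries labelled EVFN1 and MKM1, and a line at the mean of the other libraries of a group. Sqle, Idi1 and Cyp51 are highest in MWM and in MWF2, Insig1 is low in EVFY and EVFN2, and the points of MWF and of ESM lie far apart for most genes.

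Sqle, Idi1 and Cyp51 varied together across the libraries, and Hmgcs1 varied apart from them. Pearson correlations of log2(CPM + 0.5) over the 14 libraries were 0.95 between Sqle and Idi1, 0.91 between Idi1 and Cyp51 and 0.88 between Sqle and Cyp51. Those of Hmgcs1 were 0.27 with Sqle, 0.13 with Idi1 and -0.22 with Srebf2, and were larger with Insig1 (0.67) and Lss (0.65). These describe libraries that share groups, and are given without a test. Averaged over the 7 genes as z-scores, the libraries ran from -1.26 (EVFN2), -0.999 (EVFY2) and -0.95 (EVFY1) to 0.98 (MWM2), 0.997 (MWF2) and 1.13 (MWM1). The library labelled MKM1, at -1.93, was below all of these, and that labelled EVFN1 was at 0.82.

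Libraries of the same group disagreed most in ESM and MWF. In ESM, Hmgcs1 was 2.47-fold higher in ESM1, while Idi1 was 2.88-fold, Cyp51 2.41-fold, Sqle 2.22-fold and Srebf2 1.72-fold higher in ESM2. In MWF, 6 of the 7 genes were 1.84-fold (Cyp51) to 2.31-fold (Hmgcs1) higher in MWF2, and Srebf2 was 1.13-fold higher there. Cell marker levels also differed within these pairs, some in step with the genes and others not. The summed level of 3 skeletal muscle markers was 12903 CPM in MWF1 and 1065 in MWF2, and 6466 CPM in ESM2 and 114 in ESM1. That of 8 adipocyte markers was 9987 CPM in MWF1 and 15392 in MWF2, and 18257 CPM in ESM2 and 27727 in ESM1. From MWF1 to MWF2 the sum of 8 hepatocyte markers rose from 2308 to 4969 CPM. That of 5 mammary and glandular epithelium markers rose from 73.0 to 159 CPM, and that of 6 keratinocyte and sebaceous gland markers from 26.4 to 70.3 CPM. Some lists fell, such as 4 lymphocyte markers from 531 to 386 CPM. In ESM1 and ESM2 the hepatocyte sum was 28.5 and 26.7 CPM. The part of any of these cell types in the differences was not tested. In bulk tissue, fewer cells of a type and less RNA per cell cannot be told apart.

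**Figure D2:**
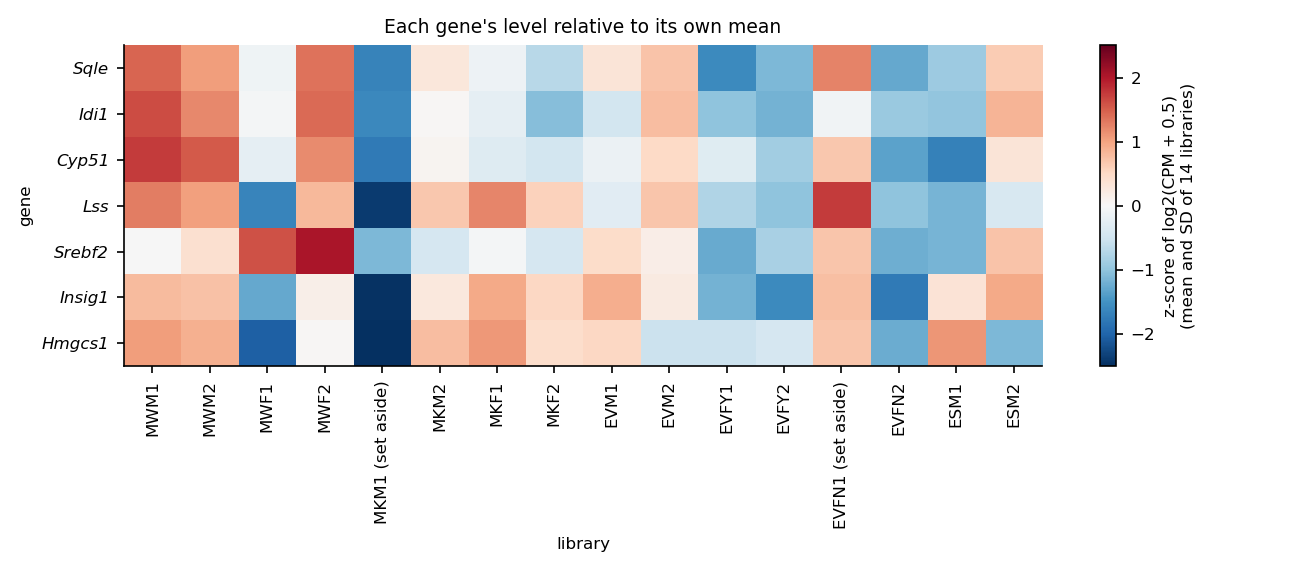
Each gene's log2(CPM + 0.5) as a z-score from the mean and SD of 14 libraries (colour), by library (columns, grouped by code) and gene (rows). Sqle, Idi1 and Cyp51 share their pattern, Hmgcs1 is high in ESM1 where they are low, and the library labelled MKM1 is low for all 7 genes.

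The first comparison set WT implants (MWM and MWF, n = 4) against visceral fat (EVM, EVFY and EVFN, n = 5). Of the 7 genes, 4 rose in the implants and 0 fell. Over all 17871 genes tested, 22.4% passed in either direction and 15.9% were higher. Sqle had a mean of 28.4 ± 8.78 CPM (SD, n = 4) in WT implants and 13.9 ± 7.68 CPM (n = 5) in visceral fat, a difference in log2(CPM + 0.5) of 1.18 (SE 0.29, adjusted p = 0.0210, limma with Benjamini-Hochberg adjustment over all genes). Idi1 rose by 1.30 (SE 0.37, adjusted p = 0.0381), Cyp51 by 1.01 (SE 0.27, adjusted p = 0.0307) and Srebf2 by 0.69 (SE 0.16, adjusted p = 0.0165). For Insig1 the difference was 0.60 (SE 0.20, adjusted p = 0.0570), for Lss 0.34 (SE 0.19, adjusted p = 0.208) and for Hmgcs1 0.32 (SE 0.32, adjusted p = 0.490), all above the threshold of 0.05. The libraries of both sides overlapped for all 7 genes, and did not for 14.4% of all genes. The median difference of all genes was 0.11 and fell to 0.03 with median-of-ratios scaling, which moved the calls over all genes from 2849 higher and 1162 lower to 2456 and 1854. Markers of other tissues differed between the same groups. The summed level of 8 hepatocyte markers was 2308 to 10552 CPM in WT implants and 9.65 to 64.7 CPM in visceral fat, that of 3 skeletal muscle markers 1065 to 12903 and 44.8 to 529 CPM, and that of 3 lung epithelium markers 109 to 459 and 0 to 0.12 CPM. Other sums were lower in WT implants. That of 4 mesothelium markers was 2.77 to 22.4 CPM there and 136 to 425 CPM in visceral fat. That of 8 adipocyte markers was 9987 to 22242 and 21828 to 31813 CPM, with slight overlap. The part of these tissues in the differences of the 7 genes was not tested.

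The calls changed with the visceral groups used and with single libraries left out. Against EVM alone, a split chosen after seeing the data, 0 of the 7 passed (9.36% of all genes), with differences of 0.30 for Sqle, 0.69 for Idi1, 0.54 for Cyp51 and 0.29 for Srebf2. Against EVFY and EVFN2, 5 passed (20.9% of all genes), Insig1 among them with 1.05 (adjusted p = 0.0145). With 1 library left out, the count was 0 without MWM2, 1 without MWM1, MWF2, EVFY1 or EVFN2, 2 without EVFY2, 3 without EVM1, 4 without EVM2 and 6 without MWF1. The differences themselves stayed positive, at 0.92 to 1.45 for Sqle, 1.01 to 1.59 for Idi1, 0.78 to 1.23 for Cyp51 and 0.57 to 0.73 for Srebf2. Without MWM2 they were 1.26, 1.38, 1.04 and 0.64, with adjusted p of 0.0519, 0.0840, 0.0777 and 0.0627. With all 16 libraries as labelled it was 0, and the differences were 0.88 for Sqle (adjusted p = 0.191), 1.19 for Idi1 (0.0772), 0.80 for Cyp51 (0.149) and 0.55 for Srebf2 (0.0814).

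KO implants (MKM2, MKF1 and MKF2, n = 3) were then set against the same visceral libraries, so that both comparisons share them. Summed adipocyte markers were at 16374 to 20778 CPM in KO implants and 21828 to 31813 CPM in visceral fat. Summed macrophage markers were at 3671 to 4650 and 866 to 1942 CPM. The part of these cells in the differences was not tested. Of the 7 genes 1 rose, where 24.6% of all genes passed and 16.4% were higher. It was Insig1, at 162 ± 24.7 CPM (n = 3) against 104 ± 55.7 (n = 5), with a difference of 0.85 (SE 0.22, adjusted p = 0.0228). The other 6 had positive differences that did not pass, 0.78 for Hmgcs1 (SE 0.36, adjusted p = 0.152), 0.50 for Lss (SE 0.21, adjusted p = 0.117), 0.46 for Sqle, 0.26 for Cyp51, 0.25 for Idi1 and 0.13 for Srebf2. The difference of Insig1 was -0.04 against EVM alone and 1.30 (adjusted p = 0.00640) against EVFY and EVFN2. It lost the threshold without MKF1 (0.79, adjusted p = 0.0726) and without EVFN2 (0.57, adjusted p = 0.111), and with all 16 libraries (0.16, adjusted p = 0.849), a fit in which no gene passed with limma and 2077 genes had an unadjusted p under 0.05.

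Within visceral fat Insig1 had the smallest p of the 7. In a comparison added after seeing the data, it was at 161 ± 33.9 CPM in EVM (n = 2) against 65.0 ± 8.93 in EVFY and EVFN2 (n = 3), a difference of 1.34 (SE 0.27, adjusted p = 0.0517). None of the 7 passed (3 had an unadjusted p under 0.05), and 1.35% of all genes did. Insig1 passed with a pseudocount of 0.1, with median-of-ratios scaling, with edgeR's quasi-likelihood test on the reads and without EVM2 (1.55, adjusted p = 0.0421). Sqle had a difference of 1.33 (SE 0.39, adjusted p = 0.137), Idi1 0.91, Cyp51 0.70, Srebf2 0.59, Hmgcs1 0.49 and Lss 0.43. For 6 of the 7, all except Hmgcs1, both EVM libraries were above the other 3, which held for 16.1% of all genes. EVM had surgery and EVFN did not, and surgery is not stated for EVFY. Ddx3y was at 90.7 and 95.5 CPM in EVM and at 0 in EVFY and EVFN2, so that sex differed throughout this comparison. Between EVM and EVFN2, surgery and sex cannot be told apart. The summed level of 6 markers of lipid-associated macrophages was 1724 and 1211 CPM in EVM and 164 to 274 CPM in the other 3, and its part in the difference was not tested.

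Against subcutaneous fat (ESM1 and ESM2, n = 2) none of the 7 genes passed in WT implants with limma or with edgeR, where 10.4% of all genes did with limma, and 2 of the 7 had an unadjusted p under 0.05. Cyp51 had the largest difference, 50.5 ± 16.3 CPM (n = 4) against 24.8 ± 14.5 (n = 2), or 1.07 (SE 0.34, adjusted p = 0.0865), and Hmgcs1 had -0.01 (SE 0.40). Without ESM2, Cyp51 (1.69, adjusted p = 0.0351) and Srebf2 (0.90, adjusted p = 0.0301) passed, with the remaining library of ESM assumed to vary like the other groups. Without MWF1, Lss passed (0.65, adjusted p = 0.0425). In KO implants none passed with either tool, where 18.3% of all genes did, and 1 of the 7, Lss, had an unadjusted p under 0.05. Lss had the largest difference there, 35.0 ± 3.24 (n = 3) against 23.1 ± 3.20 CPM (n = 2), or 0.58 (SE 0.25, adjusted p = 0.151), and its KO implants were all above both ESM libraries, as held for 34.8% of all genes. Between visceral and subcutaneous fat none passed with either tool, and 1.20% of all genes did. Insig1 alone had an unadjusted p under 0.05. Its change was -0.94 (SE 0.24, adjusted p = 0.163). Where visceral fat was taken as EVFY and EVFN2, a split chosen after seeing the data, Insig1 fell by 1.38 (adjusted p = 0.0484) against ESM. Ddx3y was at 0 in EVFY and EVFN2 and at 89.7 and 73.5 CPM in ESM, so tissue and sex cannot be told apart there. In WT implants Ddx3y was at 0.18 to 17.3 CPM, and in KO implants at 0 (MKF1, MKF2) and 80.6 CPM (MKM2). This sex-linked transcript thus also differed between ESM and all implants except MKM2, and the part of sex was not tested. ESM had surgery, EVFN2 did not, and surgery is not stated for EVFY. In EVM, also male and with surgery, mean Insig1 was 161 ± 33.9 CPM (n = 2), beside 166 ± 30.6 CPM (n = 2) in ESM.

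KO and WT implants, which differ in the labelled leptin genotype of the donor cells, were compared directly. Other markers differed too. Summed levels in KO and WT implants were 72.1 to 861 and 1065 to 12903 CPM for skeletal muscle, and 7.98 to 20.1 and 109 to 459 CPM for lung epithelium. Those of macrophages were 3671 to 4650 and 1086 to 1390 CPM. Genotype and tissue content cannot be told apart here. None of the 7 genes passed with limma or with edgeR, where 10.8% of all genes did with limma, and 3 of the 7 (Srebf2, Idi1 and Cyp51) had an unadjusted p under 0.05. Srebf2 came nearest, at 99.9 ± 6.28 CPM (n = 3) in KO against 149 ± 41.3 (n = 4) in WT implants, a difference of -0.55 (SE 0.18, adjusted p = 0.0837). It was lower in 3 of 3 KO implants than in every WT implant, which held for 12.6% of all genes. Fitted on the compared groups alone, Srebf2 passed with the same difference (adjusted p = 0.0218). Idi1 had -1.05 (SE 0.43, adjusted p = 0.153), Cyp51 -0.75 (SE 0.31, adjusted p = 0.157) and Sqle -0.72 (SE 0.33, adjusted p = 0.193). Hmgcs1 (0.45, SE 0.37), Insig1 (0.25, SE 0.23) and Lss (0.16, SE 0.21) had positive differences. With all 16 libraries those 3 differences turned to -0.02, -0.17 and -0.13. The difference between KO and WT implants was also tested between the groups described as male and those described as female. It did not pass for any of the 7 with either tool, where 0.548% of all genes passed with limma. Insig1, the only 1 with an unadjusted p under 0.05, came nearest with -1.12 (SE 0.45, adjusted p = 0.277). The male KO group is MKM2 alone in this test and in every comparison of KO implants, so its spread is taken from the other groups. Xist was at 494 (MWM1), 466 (MWM2) and 3.77 CPM (MKM2). The groups described as male thus differed in this gene, and the test follows the labels.

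**Figure D3:**
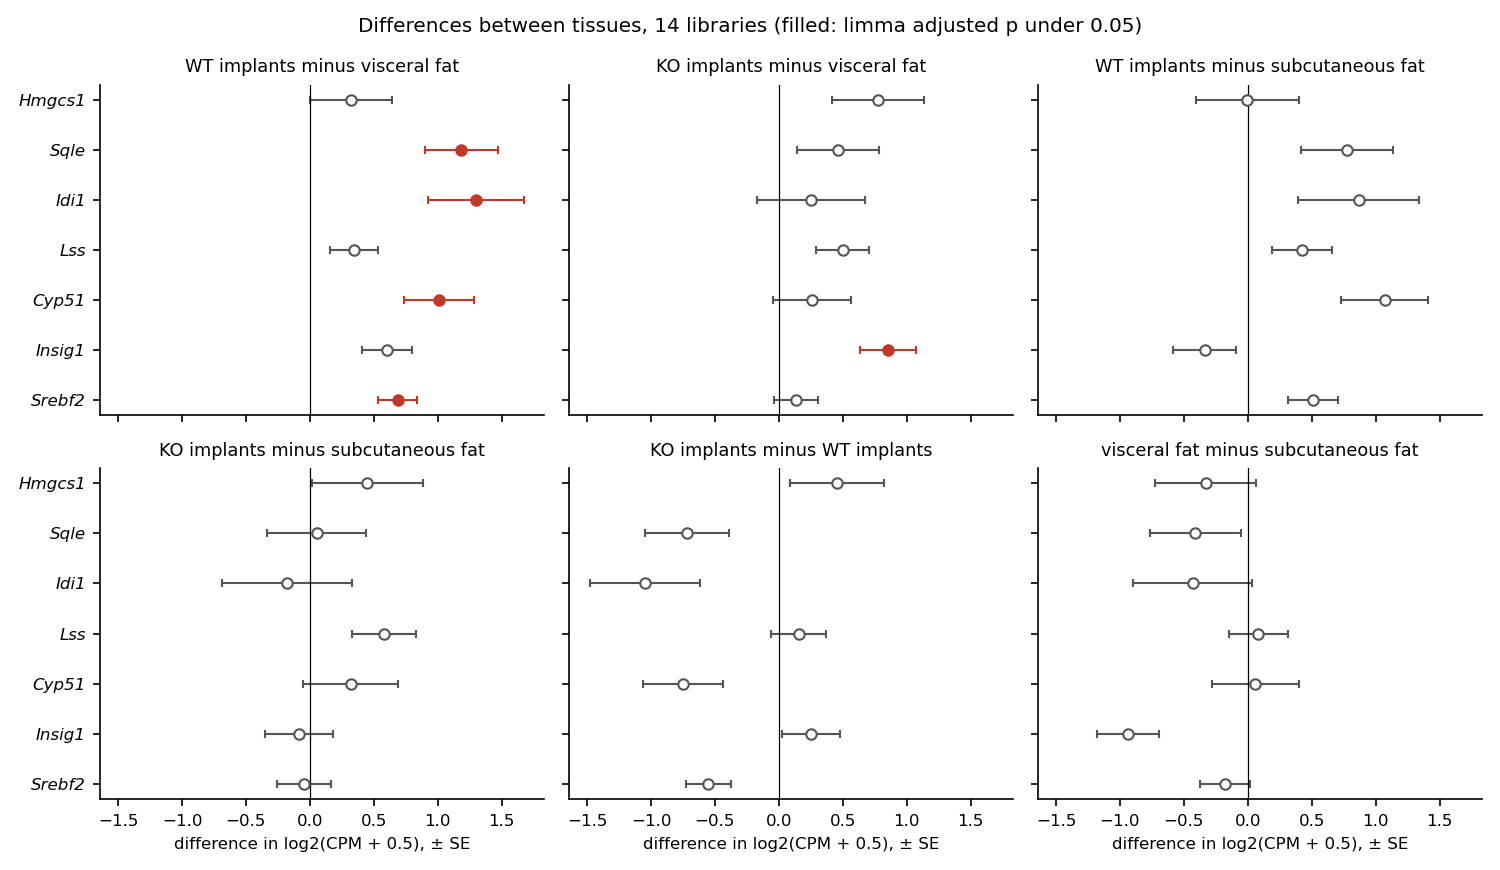
Differences in log2(CPM + 0.5) with standard errors (horizontal axes) for the 7 genes (vertical axes) in 6 comparisons over 14 libraries; filled red points have a limma adjusted p under 0.05. Sqle, Idi1, Cyp51 and Srebf2 pass between WT implants and visceral fat, Insig1 passes between KO implants and visceral fat, and no gene passes in the other 4 panels.

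The wider list of 18 sterol synthesis genes holds 5 of the 7. Between WT implants and visceral fat 9 rose and 0 fell, with a median difference of 0.86 beside 0.11 for all genes tested, of which 22.4% passed and 15.9% were higher. The hepatocyte, muscle and lung markers given above differed between the same groups, and their part was not tested. The list was chosen with results of these data known, so its count is a description. Hsd17b7, a reductase acting on sterol ketones, was at 25.5 (MWM1), 21.5 (MWM2), 19.0 (MWF1) and 17.9 CPM (MWF2) in WT implants and at 14.1 (EVM1), 13.4 (EVM2), 6.33 (EVFY1), 7.13 (EVFY2) and 7.07 CPM (EVFN2) in visceral fat, without overlap. It rose by 1.21 (SE 0.13, adjusted p = 0.000826). Dhcr7, which makes cholesterol from 7-dehydrocholesterol, was at 23.8 (MWF1) to 45.7 CPM (MWM1) against 7.55 (EVFN2) to 16.6 CPM (EVM2) and rose by 1.70 (SE 0.25, adjusted p = 0.00291). Msmo1, the sterol methyl oxidase, rose by 1.09 (SE 0.24, adjusted p = 0.0141). Fdps, the farnesyl diphosphate synthase, rose by 1.53 (SE 0.21, adjusted p = 0.00202) at a low level of 2.64 ± 1.09 against 0.58 ± 0.15 CPM, which rested on 7 to 18 reads a library in visceral fat and 33 to 90 in WT implants. With all 16 libraries Fdps was the 1 gene of the 18 that passed (1.33, adjusted p = 0.0194), where 9.66% of all genes did. Within visceral fat Hsd17b7 alone of the 18 was higher in EVM past the threshold (0.94, SE 0.18, adjusted p = 0.0477). Of all genes 1.35% passed there in either direction.

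In KO implants against visceral fat 3 of the 18 rose and 1 fell, with a median of 0.38 beside 0.08 for all genes. Of all genes 24.6% passed and 16.4% were higher, so that the list's count was near that background. Dhcr7 rose by 1.64 (SE 0.29, adjusted p = 0.00419), at 32.2 to 35.9 CPM in the 3 KO implants, and Msmo1 by 1.00 (SE 0.27, adjusted p = 0.0259). Hsd17b7 rose by 0.89 (SE 0.15, adjusted p = 0.00350). The gene that fell was Fdft1, squalene synthase, which acts just before Sqle. It was at 25.6 (MKM2), 22.5 (MKF1) and 17.4 CPM (MKF2) in KO implants and at 49.8 (EVFN2) to 70.1 CPM (EVM2) in visceral fat, a difference of -1.26 (SE 0.13, adjusted p = 0.000371). WT implants had 48.4 (MWM2) to 55.3 CPM (MWM1). Between KO and WT implants Fdft1 fell by 1.19 (SE 0.13, adjusted p = 0.00123). It was the single gene of the 18 that passed there, where 10.8% of all genes did. Against subcutaneous fat it fell by 1.32 (SE 0.16, adjusted p = 0.00109). The library labelled EVFN1 had 29.5 CPM of Fdft1 and that labelled MKM1 47.2, and with all 16 libraries the difference between KO and WT implants was -0.97 (adjusted p = 0.0515).

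Against subcutaneous fat, 3 of the 18 rose in WT implants (10.4% of all genes passed) and 2 rose and 1 fell in KO implants (18.3% of all genes). Dhcr7 was at 8.34 (ESM1) and 18.7 CPM (ESM2) in subcutaneous fat and rose by 1.49 (SE 0.32, adjusted p = 0.0221) in WT and by 1.43 (SE 0.35, adjusted p = 0.0222) in KO implants. Hsd17b7 rose by 1.00 (SE 0.17, adjusted p = 0.00808) in WT and by 0.68 (SE 0.18, adjusted p = 0.0322) in KO implants. Fdps rose by 1.19 (SE 0.27, adjusted p = 0.0256) in WT implants.

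**Figure D4:**
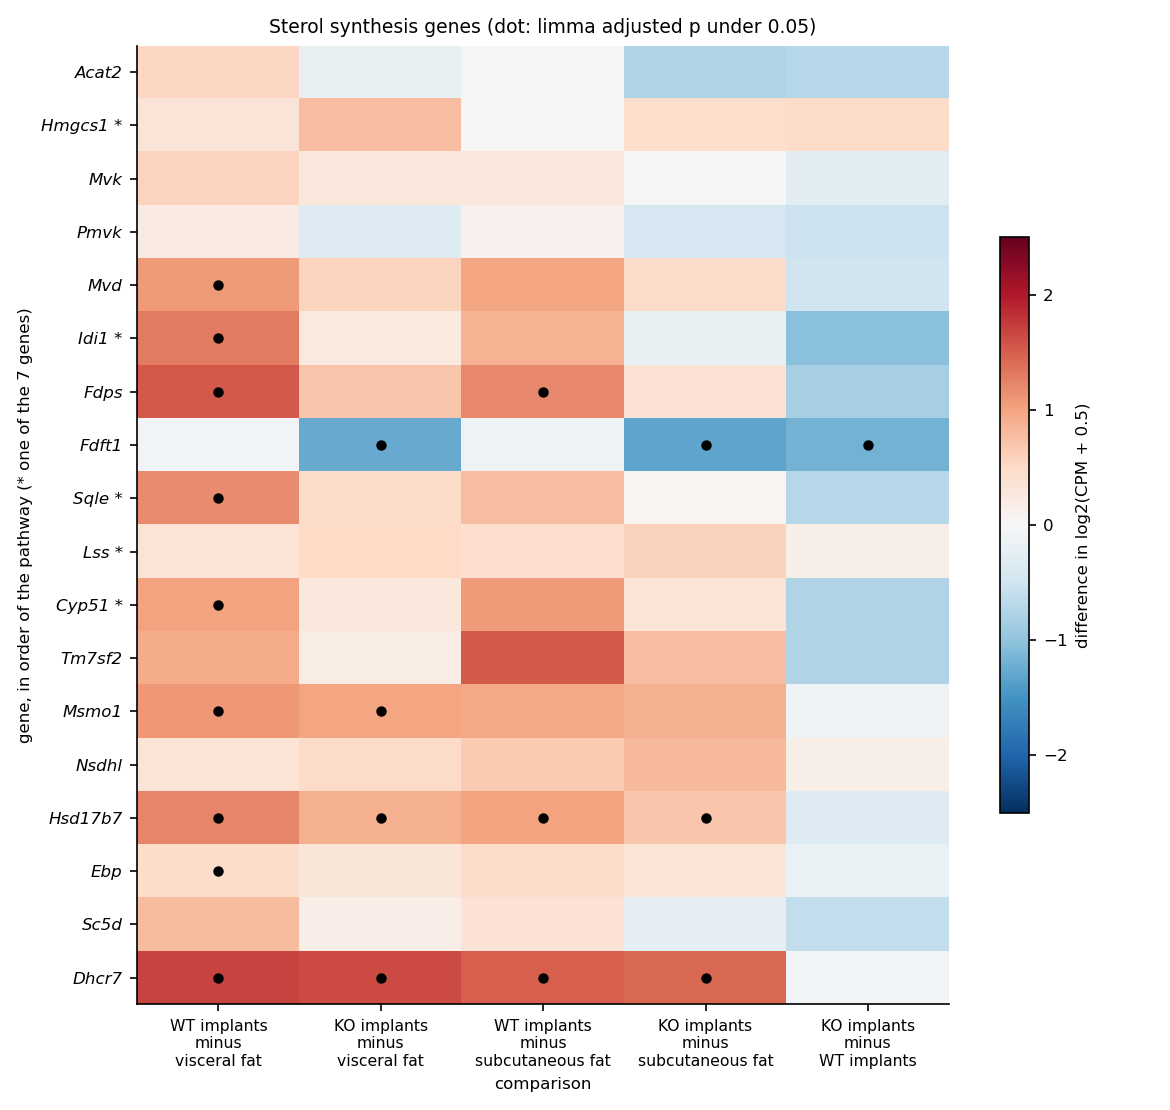
Difference in log2(CPM + 0.5) (colour) for 18 sterol synthesis genes in pathway order (rows) in 5 comparisons over 14 libraries (columns); a dot marks a limma adjusted p under 0.05. Implants are higher than endogenous fat for most rows, 9 of 18 with a dot between WT implants and visceral fat, and Fdft1 is lower in KO implants.

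Of the 8 genes of uptake and trafficking 0 rose and 1 fell between WT implants and visceral fat, and 4 rose and 0 fell between KO implants and visceral fat. Of all genes 22.4% and 24.6% passed in these comparisons. The gene that fell in WT implants was Npc1, which exports cholesterol from lysosomes, with a difference of -0.42 (SE 0.11, adjusted p = 0.0252). In KO implants Lipa, the lysosomal acid lipase that frees cholesterol from its esters, rose by 2.497 (SE 0.23, adjusted p = 0.000233) and Npc1 by 0.60 (SE 0.12, adjusted p = 0.00754). The endocytic receptor gene Lrp1 rose by 0.60 (SE 0.14, adjusted p = 0.0159) and Npc2, which hands cholesterol to Npc1, by 0.49 (SE 0.15, adjusted p = 0.0415). The summed level of 6 markers of lipid-associated macrophages was 4173 to 4549 CPM in KO implants, 164 to 1724 CPM in visceral fat and 304 to 390 CPM in subcutaneous fat, and its part in these differences was not tested. Against subcutaneous fat 3 of the 8 rose in KO implants (18.3% of all genes passed), Lipa by 3.11 (SE 0.28, adjusted p = 0.000340), Npc1 by 1.10 (SE 0.14, adjusted p = 0.00162) and Npc2 by 0.62 (SE 0.18, adjusted p = 0.0436).

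Between KO and WT implants 4 of the 8 uptake and trafficking genes rose and 0 fell, where 10.8% of all genes passed. Lipa was at 751 (MKM2), 836 (MKF1) and 797 CPM (MKF2) in KO implants and 236 (MWM1), 138 (MWM2), 85.2 (MWF1) and 113 CPM (MWF2) in WT implants, a difference of 2.55 (SE 0.24, adjusted p = 0.000522). Npc1 was at 117 to 124 CPM in KO and 56.0 to 61.4 CPM in WT implants and rose by 1.02 (SE 0.12, adjusted p = 0.00148). It also passed with all 16 libraries (0.86, adjusted p = 0.0396). Lrp1 rose by 0.85 (SE 0.14, adjusted p = 0.00786) and Scarb1, a receptor for high-density lipoprotein, by 0.69 (SE 0.17, adjusted p = 0.0337). KO and WT implants of the 14 libraries did not overlap for Lipa, Npc1, Lrp1 or Scarb1. The share of all genes for which this held is not given here.

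Of the 9 genes of efflux, storage and oxysterols 2 rose between KO and WT implants and 0 fell, beside 10.8% of all genes that passed. Soat1, which esterifies cholesterol for storage, was at 130 (MKM2), 130 (MKF1) and 122 CPM (MKF2) against 43.9 (MWM1), 28.6 (MWM2), 47.8 (MWF1) and 51.7 CPM (MWF2), and rose by 1.595 (SE 0.23, adjusted p = 0.00397). Abcg1, a sterol exporter, was at 194 to 222 CPM against 80.5 to 96.2 CPM and rose by 1.24 (SE 0.23, adjusted p = 0.0121). The levels of markers of lipid-associated macrophages moved with these genes. The sum of 6 such markers was 4173 to 4549 CPM in the KO implants and 310 to 1208 CPM in the WT implants, and that of 6 general macrophage markers 3671 to 4650 and 1086 to 1390 CPM. Every marker of both lists had reads in all of these libraries, and the part of macrophage content in the rise of Lipa, Npc1, Soat1 and Abcg1 was not tested. In the library labelled EVFN1 Lipa was at 1121, Soat1 at 177 and Abcg1 at 228 CPM, and in that labelled MKM1 at 119, 32.2 and 99.1 CPM, and with all 16 libraries Lipa, Soat1 and Abcg1 did not pass (adjusted p = 0.153, 0.297 and 0.127).

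Soat2, the esterifying enzyme known from liver and gut, was at low levels. It was at 8.503 (MKM2), 2.37 (MKF1) and 0.82 CPM (MKF2) in KO implants and at 4.79 ± 2.498 CPM (n = 4) in WT implants against 0.56 ± 0.21 CPM (n = 5) in visceral fat, and in WT implants it rose by 2.16 (SE 0.39, adjusted p = 0.00630); with all 16 libraries the difference was 1.91 (adjusted p = 0.0620). The summed level of 8 hepatocyte markers ran in the same order in the KO implants, at 7866, 1352 and 42.4 CPM. It was 2308 to 10552 CPM in WT implants and at most 64.7 CPM in endogenous fat, and the part of liver-like transcripts in the level of Soat2 was not tested. The rise of Soat2 in KO implants against visceral fat, 1.96 (SE 0.43, adjusted p = 0.0121), was lost without MKM2 (0.86, adjusted p = 0.248).

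Against endogenous fat, 2 of the 9 genes of efflux, storage and oxysterols rose in WT implants and 3 in KO implants, in each case against visceral (22.4% and 24.6% of all genes passed) and against subcutaneous fat (10.4% and 18.3%), and 0 fell. In WT implants against visceral fat the other gene beside Soat2 was Ch25h, which makes 25-hydroxycholesterol. It rose by 1.30 (SE 0.32, adjusted p = 0.0236) and rested on 2 to 15 reads a library in visceral fat and 23 to 31 in WT implants. In KO implants against visceral fat Soat1 rose by 1.94 (SE 0.23, adjusted p = 0.000647) and Abcg1 by 1.62 (SE 0.22, adjusted p = 0.00143), beside Soat2. Against subcutaneous fat Soat1 rose by 1.02 (SE 0.26, adjusted p = 0.0395) in WT and by 2.61 (SE 0.28, adjusted p = 0.000623) in KO implants. Soat2 rose by 2.12 (SE 0.49, adjusted p = 0.0275) in WT and by 1.92 (SE 0.52, adjusted p = 0.0352) in KO implants, and Abcg1 by 1.89 (SE 0.27, adjusted p = 0.00247) in KO implants. With all 16 libraries Ch25h passed (1.26, adjusted p = 0.0262), and Soat1, Soat2 and Abcg1 did not pass against either endogenous fat (adjusted p from 0.0620 to 0.470). Ch25h was lost without MWF2, MWM1 or MWM2 (adjusted p from 0.0540 to 0.0831). Against subcutaneous fat both calls in WT implants were lost without ESM1, ESM2, MWF2 or MWM1, and that of Soat1 also without MWF1. The call of Soat2 in KO implants was lost there without ESM1, ESM2, MKF1 or MKM2 (0.82 without MKM2, adjusted p = 0.377). The levels of hepatocyte and lipid-associated macrophage markers given above differed between the same tissues, and their part was not tested.

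**Figure D5:**
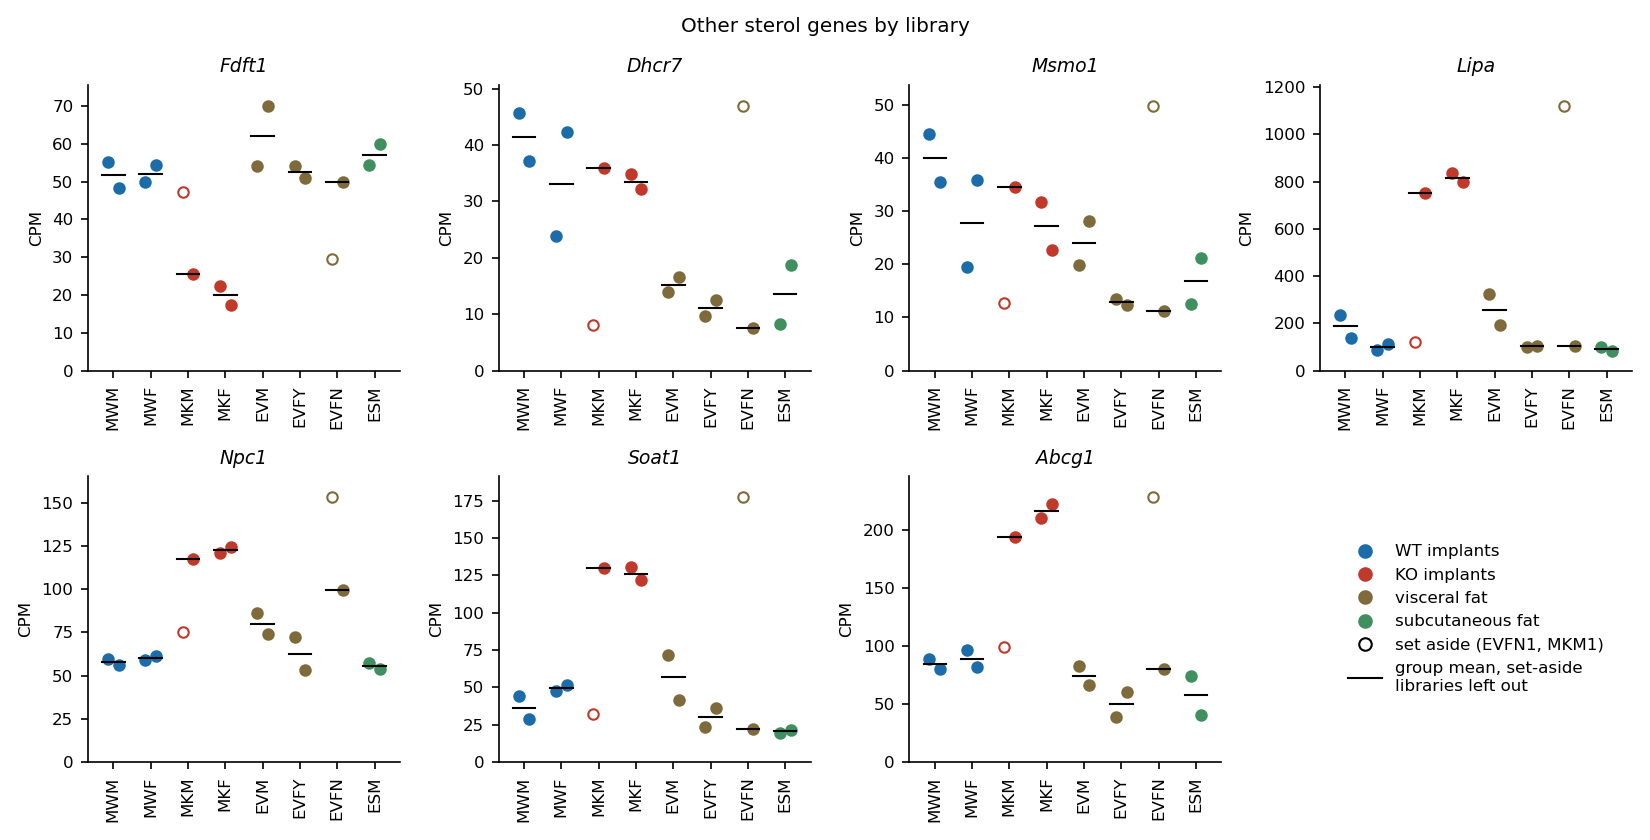
CPM (vertical axes, from 0) of squalene synthase (Fdft1), Dhcr7, Msmo1, Lipa, Npc1, Soat1 and Abcg1 by library and group code, drawn as for the 7 genes, with open points for the libraries labelled EVFN1 and MKM1. The filled KO points lie above all WT points for Lipa, Npc1, Soat1 and Abcg1 and below them for Fdft1, and in the panel of Lipa the open points lie at 1121 CPM (EVFN1) and 119 CPM (MKM1).

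The list of 7 control genes holds Srebf2 and Insig1. Between WT implants and visceral fat Mbtps2, the protease that makes the second cut in SREBP release, had a difference of -0.33 (SE 0.10, adjusted p = 0.0394) and passed, so that of the 7 control genes 1 rose (Srebf2) and 1 fell, a share close to the 22.4% of all genes. Mbtps2 rose by 0.58 (SE 0.11, adjusted p = 0.0136) between KO and WT implants. Of 6 fatty acid synthesis genes none passed between WT implants and either endogenous fat, and Acaca, the acetyl-CoA carboxylase that commits carbon to fatty acids, had a difference of -1.89 (SE 0.57, adjusted p = 0.0422) between KO implants and visceral fat and passed there. The median differences of that list were -0.39 in WT implants, where 3 of the 6 were positive and 3 negative, and -1.64 in KO implants against visceral fat.

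Genes most like the 7 were sought among 12136 genes with a mean of at least 5 CPM, by the correlation of log2(CPM + 0.5) with the mean z-score of the 7 over 14 libraries. The closest was Msmo1 (r = 0.94), and Acad9, Afg3l1, Higd1a, Ebp, Psma3, Cyb5b, Sfxn5 and Gamt were among the 10 closest (r = 0.92 to 0.94). Msmo1 and Ebp belong to the list of sterol synthesis genes. Mvk (rank 13) and Mvd (rank 15) came next among sterol synthesis genes, and Fdft1 was at rank 6738 with r = -0.02. The correlations describe 14 libraries that share groups and carry no test.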

How the data were processed

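RNA of mouse fat and implants was sequenced after removal of ribosomal RNA and priming with random hexamers, per the labels' protocols. The submitters' processing notes name cutadapt 2.7, STAR 2.5.4, featureCounts of Subread 1.6.3 and the build mm10; the sources used here give no annotation, strand setting or filters. The authors deposited 1 table of CPM (read counts per 1000000) for 16 libraries. Whole reads were recovered from it for 100% of non-zero values (tolerance 0.001 reads). The 7 genes and all lists were chosen with earlier results of these data known. Symbols were matched to GENCODE M21 (99.0%) for positions and exon lengths.

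Differences were tested with limma 3.58.1 (trend and robust options, R 4.3.3) on log2(CPM + 0.5), a scale that understates changes of low genes. The fit held 8 groups over 14 libraries with 6 residual degrees of freedom, weighted groups equally within a tissue, and kept 17871 genes that reached 1 CPM in 2 or more libraries. Benjamini-Hochberg adjustment ran over all genes, with a threshold of 0.05. In this fit MKM and EVFN hold 1 library each, and EVFN1 and MKM1 were left out because they stood against their labels. Alternatives were all 16 libraries (17964 genes), pseudocounts of 0.1 and 2, no filter, median-of-ratios scaling, edgeR 4.0.16 quasi-likelihood on the recovered reads, a replicate block, the compared groups alone and leaving out each library. On simulated data for WT implants against visceral fat (17037 genes), 98% of 2-fold changes were recovered and 0.083% of unchanged genes were called. The simulation gave all genes the same spread and changed only genes with a mean of at least 5 CPM. Real libraries of ESM and MWF differed by more than that spread, so these rates do not tell how many real changes were missed. Libraries of the same group differed by more than sampling noise (chi-square per degree of freedom 15.7 to 72.0). P-values measure the spread between libraries, which may be technical. Beside the 7, each comparison names per list up to 4 genes past the threshold with the smallest adjusted p, or may name up to 2 where none passed; other genes named were chosen after their values were seen. A labelled group coded ESF is not analysed here. Some genes of the sterol lists are not reported here, and the lists' counts leave them out.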

Additional observations from a re-analysis of the deposited data

Results flagged for a closer look

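Idi1 in EVM2, at 12.0 CPM, lay far from the other 4 visceral libraries (3.84 to 5.86 CPM) by Dixon's test at 95%. Of 14 groups of values tested in this way it was the only one to pass, and chance passes about 1 in 20.

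The library labelled EVFN1, which enters no group value, was above all 5 visceral libraries for 5 of the 7 genes. Its profile across genes was closest to MKF1 (r = 0.984), and the share of all genes above the 5 visceral libraries was not counted. The count is therefore a description and not a result about these genes. In EVFN1, Hmgcs1 was at 239 CPM, Sqle at 31.7 CPM, Lss at 44.4 CPM, Cyp51 at 40.7 CPM and Srebf2 at 133 CPM.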

How the results depend on the processing

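The 5 calls among the 7 genes held with pseudocounts of 0.1 and 2, without the filter, with median-of-ratios scaling and in the compared groups alone. With edgeR the count of members called between WT implants and visceral fat was 3, since Idi1 had an adjusted p of 0.0505. With all 16 libraries, and against EVM alone, the counts were 0 for WT and 0 for KO implants against visceral fat. In the compared groups alone KO implants against visceral fat gave 2 (Hmgcs1 added) and KO against WT implants 1. Visceral against subcutaneous fat gave 1 with EVFY and EVFN2 as visceral fat, and EVM against EVFY and EVFN2 gave 1 with a pseudocount of 0.1, 1 with median-of-ratios scaling and 1 with edgeR. Leaving out 1 library gave 0 to 6 for WT and 0 to 1 for KO implants against visceral fat, 0 to 2 for WT and 0 to 0 for KO implants against subcutaneous fat, 0 to 0 for KO against WT implants, for its male and female difference and for visceral against subcutaneous fat, and 0 to 1 within visceral fat.

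The labels do not say that replicate numbers pair the libraries. Same-numbered deviations correlated at -0.44 to 0.34 over 15 pairs of groups, 7 of them over 0.1, and at 0.12 to 0.34 in every pair among ESM, EVM, MKF and MWM. With the replicate block the counts stayed at 4 and 1 against visceral fat and 0 elsewhere (Sqle 1.24, Idi1 1.37, Cyp51 1.06 and Srebf2 0.71 in WT, Insig1 0.85 in KO implants).

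Directions turned for uncalled values, and for the call of Insig1 in KO implants against EVM alone (-0.039); the cause was not tested. Against EVM alone they were -0.0044 (Hmgcs1) and -0.29 (Insig1) in WT implants, and -0.42 (Sqle), -0.36 (Idi1), -0.21 (Cyp51) and -0.26 (Srebf2) in KO implants. With all 16 libraries KO implants had -0.19 (Sqle), -0.18 (Idi1), -0.23 (Cyp51) and -0.072 (Srebf2) against visceral fat, -0.025 (Hmgcs1) and -0.30 (Sqle) against subcutaneous fat, and -0.019 (Hmgcs1), -0.13 (Lss) and -0.17 (Insig1) against WT implants. Sqle in KO implants against subcutaneous fat was -0.061 with median-of-ratios scaling, -0.16 with edgeR and -0.033 with the replicate block. In its male and female difference Sqle was -0.66 with all 16, -0.20 with median-of-ratios scaling, -0.11 with edgeR and -0.12 with the block. Visceral minus subcutaneous fat was 0.48 (Sqle), 0.18 (Idi1) and 0.22 (Srebf2) with EVM alone, -0.062 (Lss) and -0.17 (Cyp51) with EVFY and EVFN2, and -0.11 (Cyp51) with edgeR.

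Leaving out 1 library turned further uncalled values. KO implants minus subcutaneous fat ranged from -0.20 to 1.10 (Hmgcs1), -0.50 to 0.61 (Sqle), -0.89 to 0.53 (Idi1), -0.30 to 0.94 (Cyp51), -0.27 to 0.10 (Insig1) and -0.43 to 0.35 (Srebf2). Visceral minus subcutaneous fat ranged from -0.98 to 0.32 (Hmgcs1), -0.97 to 0.15 (Sqle), -1.14 to 0.28 (Idi1), -0.058 to 0.22 (Lss), -0.56 to 0.68 (Cyp51) and -0.57 to 0.21 (Srebf2). Hmgcs1 in WT implants minus subcutaneous fat ranged from -0.65 to 0.64, Idi1 in KO implants minus visceral fat from -0.013 to 0.41, and Lss between KO and WT implants from -0.072 to 0.38. The male and female difference ranged from -0.48 to 0.58 (Sqle) and -0.62 to 0.52 (Idi1).

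Over all genes, calls between WT implants and subcutaneous fat went from 1858 (1532 higher, 326 lower) to 1181 with edgeR (766 and 415). Those of the male and female difference went from 98 to 0 with edgeR, those between visceral and subcutaneous fat from 214 to 56 in the compared groups alone, and those within visceral fat from 242 to 1. Of 43 named calls of other pathway genes, 37 held with edgeR and 3 with all 16 libraries. Idi1, the lowest of the 7, was at no less than 2.92 CPM, and Soat2, Ch25h and Fdps rest on few reads in endogenous fat.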
